A study of Drosophila melanogaster with 2 samples.

Results

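Corto-GFP summits that were too weak for the authors' optimal peak set, but lay at promoters and were found in both biological replicates, numbered 2783. They were chosen by measured values. The pooled list of 30000 entries was ranked by its deposited peak signal, and the 2644 entries of the optimal set were set aside, which left 27356 weaker entries. Of these, 5907 had their summit within 500 bp of a protein-coding transcription start site (TSS), and 2783 of the 5907 also had a summit within 200 bp in each replicate's list. These 2783 are called the member summits. Their signals, ranks and replicate support are therefore a description, and no test was made of them.

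The data are peak lists from ChIP-seq, which sequences the DNA fragments that an antibody pulls down with a protein. The chromatin came from whole Drosophila melanogaster embryos aged 0 to 24 h, with males and females pooled. The line was transgenic and stably expressed Corto fused at its C-terminal end to GFP, a fluorescent tag, the precipitation used an antibody against GFP, and chromatin had been sonicated to 200 to 800 bp. There were 2 biological replicates of 1 group and so no comparison between conditions. The deposited lists hold peak positions and signals without read counts, so depth is unknown, the sources used here do not give the scale of the signal, and control reads were not used. In whole embryos, a low signal in many cells and a high signal in few cells cannot be told apart.

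Corto is a chromodomain protein whose gene belongs to the Enhancers of Trithorax and Polycomb, a class of genes whose mutations alter the phenotypes of both the silencing Polycomb group and the activating Trithorax group. A promoter is the stretch around a TSS where RNA polymerase II and the general factors assemble, and in the compact fly genome many genes share a promoter region with a neighbour read from the opposite strand. Short sequence words mark classes of fly promoters: GAGA repeats are bound by the GAGA factor, the DRE by DREF and the M1BP core by M1BP, while the TATA box is read by the TATA-binding protein.

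The sequences of 8 member summits are shown as examples of what lies under such a summit. They reach 100 bp to each side of the summit, on the plus strand of dm6 from 5′ to 3′, and were read from the NCBI RefSeq genome of that assembly. Capitals mark a match, on either strand, to one of 10 words searched. These were the GAGA repeat GAGAG, the DRE TATCGATA, the M1BP core GGTCACAC, the Zelda site CAGGTAG, the Pho core GCCAT, the E-box CAGCTG, the TATA box TATAAA, the AP-1 site TGACTCA, the CRE half-site TGACGT and the GT repeat GTGTGTGT. None of these words contains another, although matches can overlap or abut. The windows are the first 8, in order of pooled signal, of 28 that were at the strongest, weakest, best ranked or list-leading summits, held a match and at most 30 bp of annotated UTR, and were not on 1 chromosome arm from which no sequence is printed.
CG8665 (2L:21370970-21371170): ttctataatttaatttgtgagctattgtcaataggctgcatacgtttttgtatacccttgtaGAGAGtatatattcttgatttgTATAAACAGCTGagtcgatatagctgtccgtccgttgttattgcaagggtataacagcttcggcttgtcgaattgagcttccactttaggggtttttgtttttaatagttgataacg
wgn (X:18634926-18635126): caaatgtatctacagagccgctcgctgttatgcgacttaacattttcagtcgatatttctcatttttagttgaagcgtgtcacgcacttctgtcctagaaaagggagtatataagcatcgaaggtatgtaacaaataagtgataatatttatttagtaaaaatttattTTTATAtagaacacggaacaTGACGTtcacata
drn (3R:9339703-9339903): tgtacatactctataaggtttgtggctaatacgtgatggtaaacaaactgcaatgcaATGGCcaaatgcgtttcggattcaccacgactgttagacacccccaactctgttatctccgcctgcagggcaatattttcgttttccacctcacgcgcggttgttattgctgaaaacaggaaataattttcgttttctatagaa
CG3961 (3L:18890847-18891047): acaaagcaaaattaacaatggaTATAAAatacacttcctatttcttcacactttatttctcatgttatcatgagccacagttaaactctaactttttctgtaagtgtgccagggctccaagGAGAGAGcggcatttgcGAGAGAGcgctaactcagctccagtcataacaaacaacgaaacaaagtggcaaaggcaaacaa
kis (2L:221967-222167): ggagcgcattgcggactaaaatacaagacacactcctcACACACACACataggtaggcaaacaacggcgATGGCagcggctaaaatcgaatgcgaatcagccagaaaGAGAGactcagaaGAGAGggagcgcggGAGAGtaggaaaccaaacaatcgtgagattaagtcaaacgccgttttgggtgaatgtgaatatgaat
AsnRS (2L:19131989-19132189): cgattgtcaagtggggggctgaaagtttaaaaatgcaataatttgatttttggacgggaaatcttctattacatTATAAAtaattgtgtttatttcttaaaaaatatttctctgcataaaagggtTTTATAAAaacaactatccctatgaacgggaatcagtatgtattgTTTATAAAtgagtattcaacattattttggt
ND-13B (3L:10694091-10694291): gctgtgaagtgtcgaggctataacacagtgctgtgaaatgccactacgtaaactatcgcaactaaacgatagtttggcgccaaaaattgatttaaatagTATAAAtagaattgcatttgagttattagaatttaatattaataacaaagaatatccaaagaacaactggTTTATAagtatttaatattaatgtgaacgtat
aop (2L:2178826-2179026): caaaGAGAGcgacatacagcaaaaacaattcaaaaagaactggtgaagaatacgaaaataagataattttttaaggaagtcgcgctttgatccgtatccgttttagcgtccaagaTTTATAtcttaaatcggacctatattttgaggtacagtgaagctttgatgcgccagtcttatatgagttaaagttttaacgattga
The window at CG8665 held a TATA box directly beside an E-box, and that at kis, which encodes a chromodomain helicase of the Trithorax group, held several GAGA repeats with a Pho core and a GT repeat. At CG3961 the capitals mark longer GAGA runs, and at AsnRS, the gene of asparaginyl-tRNA synthetase, only TATA words. A match is a description of the letters and not evidence of a bound factor.

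The member summits spanned the whole weaker range of the pooled list. Their pooled signal ran from 19.7 to 81.2, with a median of 46.5 and quartiles of 34.7 and 60.1, against a median of 114.9 for the 1156 optimal promoter summits. The signal of the nearest replicate summit had a median of 23.04 in replicate 1 (11.2 to 172) and 24.3 in replicate 2 (12.1 to 192). The replicates stood level: the log2 ratio of replicate 1 to replicate 2 signal had a median of −0.08 with quartiles of −0.59 and 0.43, and replicate 1 ranked the summit better at 1387 of the 2783 (49.8%).

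The rank correlation of the replicate signals at member summits moved with the cut made in the pooled list. Across the 2783, Spearman's rho of replicate 1 and replicate 2 signals was 0.20, against 0.48 over the 1101 optimal promoter summits seen in both replicates. It was 0.28 over the 7443 weaker summits away from promoters seen in both. All these sets were cut from the pooled list, which was made from the same reads, and the value moved with the cut: it was −0.69 in members of ranks up to 3000, −0.43 in ranks 3001 to 6000 and 0.35 in ranks 21001 to 24000. These values are therefore no measure of replicate agreement. Both replicates ranked 1488 member summits (53.5%) among their first 15000 entries, and only 20 (0.719%) among their first 2644. The replicate summits were a median of 64 bp apart, against 39 bp at optimal promoter summits, and 1146 member summits (41.2%) had both within 50 bp.

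**Figure D1:**
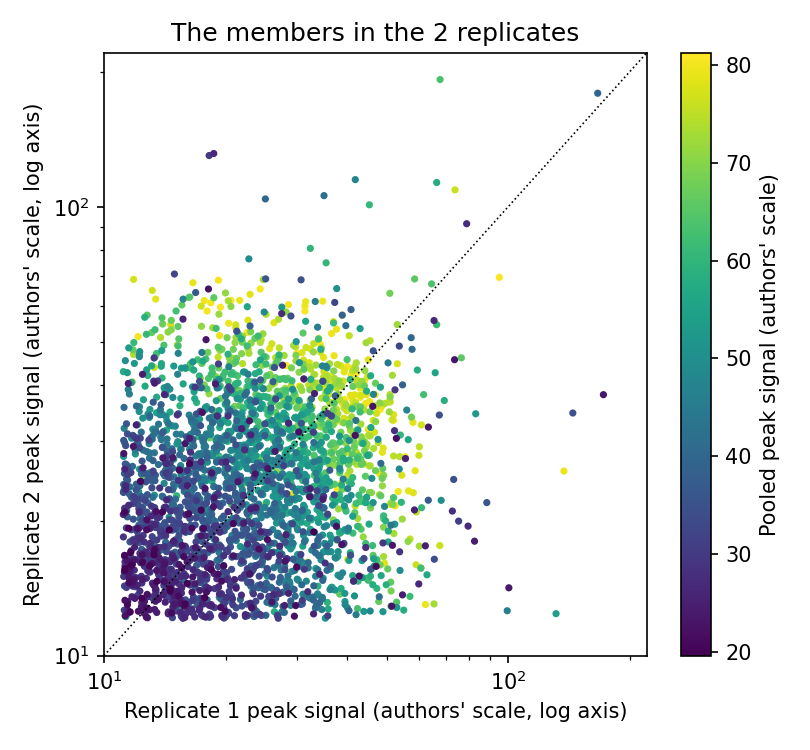
Deposited peak signal of the nearest summit in replicate 1 (horizontal, log axis) and replicate 2 (vertical, log axis) at each of the 2783 member summits, coloured by pooled signal; the dotted line marks equal values. The points form a broad cloud around the line, and a few lie above 100 in 1 replicate or both. Their rho of 0.20 moves with the cut made in the pooled list and is no measure of replicate agreement.

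The strongest member summits stood directly beneath the optimal set. The first was at fus, which encodes an RNA-binding protein, with a pooled signal of 81.19 at rank 2646 and replicate signals of 40.9 and 37.6. It was followed by Rpe, the gene of ribulose-phosphate epimerase, at 81.17 with replicate signals of 48.2 and 35.3, and by CG8665 at 81.14 with 20.6 and 61.9. The next were mtd (81.11, replicates 29.97 and 47.1), Rap2l, a small GTPase gene (81.03, replicates 34.3 and 49.4), and Dh31-R, a diuretic hormone receptor gene (80.999, replicates 42.2 and 42.6). Those at wgn, a tumour necrosis factor receptor gene, and drn had pooled signals of 80.9 and 80.8. At drn replicate 2 (59.7) was about 3 times replicate 1 (19.4), while at fus, Rpe and Dh31-R the replicates were close.

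On the other side of this edge, the weakest optimal promoter summits were at RpL8 (81.23), aru (81.27) and IRSp53 (81.4). The lowest member summits were at CAHbeta, a carbonic anhydrase gene (19.7 at rank 29945, replicates 33.0 and 18.9), CG6067 (19.7), Sox15 (19.7), CG5664 (19.7) and CG33978 (19.8). The distance thresholds cut through dense ranges. In the last 10 bp inside the 500 bp limit lay 21 summits, and in the next 10 bp outside it 23. For the larger replicate distance the counts were 117 in the last 10 bp inside the 200 bp limit and 98 in the next 10 bp.

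Replicate support was lower at each lower step of the pooled ranking. Of the 5907 weaker promoter summits, 47.1% (95% Wilson interval 45.8 to 48.4) were seen in both replicates, 1382 in replicate 1 only, 1381 in replicate 2 only and 361 in neither. For the 21449 weaker summits more than 500 bp from a TSS, 34.7% (34.1 to 35.3) were seen in both. All such intervals cover counting error only, and regions are not replicates.

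That higher share at promoters did not hold at every rank. In ranks 2645 to 3000, 90.0% of promoter summits (84.2 to 93.8) and 95.6% of the others (91.9 to 97.7) were seen in both, and in ranks 6001 to 9000 the shares were 68.3% (65.3 to 71.3) and 75.04% (73.1 to 76.85). In ranks 18001 to 21000 they were 22.8% (19.4 to 26.6) and 17.0% (15.6 to 18.5), and in the last 3000 ranks 7.42% and 3.95%. The promoter share was thus the lower of the 2 in each of the 5 upper steps and the higher in each of the 5 lower steps. Weaker promoter summits were also more frequent at the upper ranks, with 1080 in ranks 3001 to 6000 and 391 in the last 3000.

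**Figure D2:**
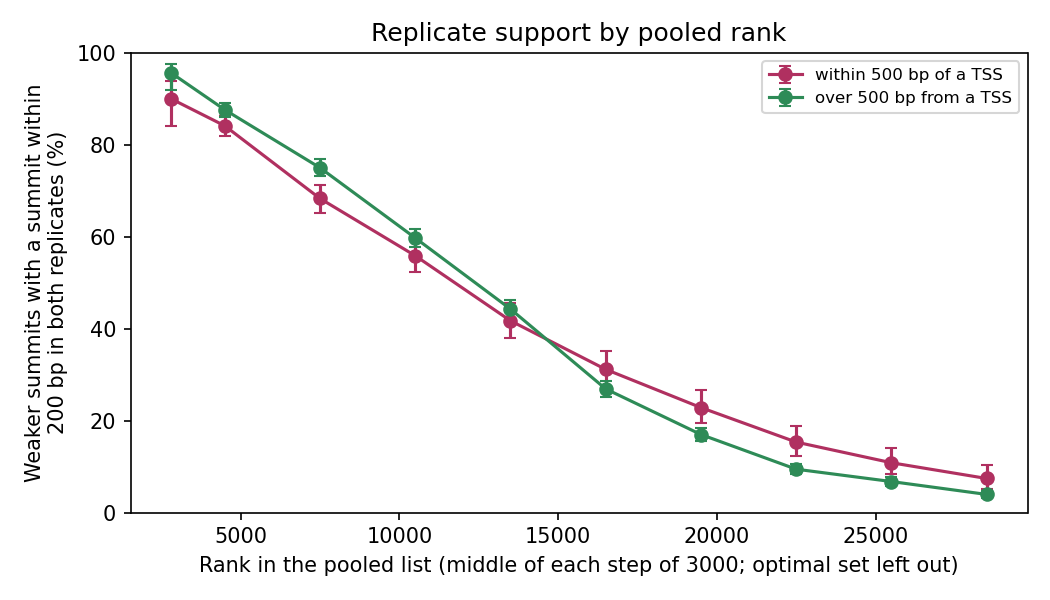
Share of weaker pooled summits with a summit within 200 bp in both replicates (vertical, percent) by pooled rank in steps of 3000 (horizontal), for summits within 500 bp of a TSS and for all others; bars are 95% Wilson intervals. Both lines fall, from 90.0% and 95.6% to 7.42% and 3.95%, and they cross near rank 15000.

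Member summits lay mostly just upstream of the TSS, in a looser arrangement than the optimal ones. Of the 2776 not exactly on a TSS, 1902 (68.5%, 66.8 to 70.2) were upstream of the nearest TSS in its direction of transcription. The share was 81.6% for optimal promoter summits and 60.4% for the 3124 weaker promoter summits lacking one or both replicates. The differences were −13.1 percentage points (Newcombe interval −15.9 to −10.2) and 8.07 points (5.62 to 10.5). Member summits had a median rank of 7452 and those without both replicates one of 18212. The part of rank in the difference between them was not tested. The median position of member summits was −94 bp, where negative is upstream, against −121 bp for the optimal set. For closeness to the TSS, 32.5% of member summits and 32.5% of optimal promoter summits were within 100 bp of the TSS, with a difference of −0.043 points (−3.29 to 3.13). Without both replicates it was 28.1%, which was 4.41 points (2.06 to 6.76) below the member summits.

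The upstream share was lower at most lower ranks. It was 71.9% in ranks 2645 to 3000, 72.6% in ranks 3001 to 6000, 59.6% in ranks 15001 to 18000 and 53.1% in ranks 24001 to 27000. The last step, of 29 summits, was at 82.8%. Without both replicates the share was 73.3% in ranks 2645 to 3000, above that of the member summits. The same order held in ranks 9001 to 12000 (66.4% against 63.4%), 21001 to 24000 (59.3% against 58.7%) and 24001 to 27000 (57.7% against 53.1%). In all other steps the member share was the higher, as in ranks 3001 to 6000 (72.6% against 62.0%). Upstream member summits had a median pooled signal of 47.4 and downstream ones 43.3.

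**Figure D3:**
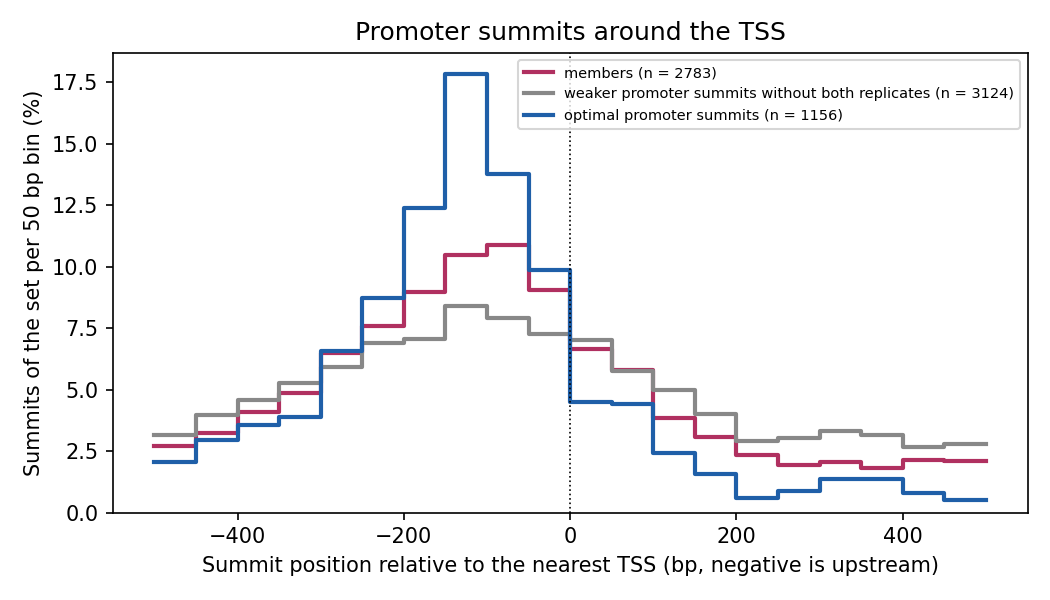
Position of promoter summits relative to the nearest TSS in bins of 50 bp (horizontal, negative is upstream), as percent of each set (vertical), for the 2783 member summits, the 1156 optimal promoter summits and the 3124 weaker promoter summits without both replicates. All 3 sets peak upstream of the TSS, most sharply in the optimal set, with the member summits between the other two.

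By annotation, 1093 member summits (39.3%) lay outside protein-coding genes, 869 (31.2%) in an intron or non-coding exon, 659 (23.7%) in a 5′ UTR and 89 (3.20%) in a 3′ UTR. Coding sequence held 73 (2.62%, 2.09 to 3.29), against 0.346% of optimal promoter summits and 5.25% of the weaker ones without both replicates. The coding share was 0.741% in ranks 2645 to 3000 and 13.3% in ranks 21001 to 24000, where it rested on 10 summits, and 0 of the 29 summits of the last 3000 ranks were coding. Among the named genes, pros, which encodes a neural homeodomain protein, Or83c, an odorant receptor gene, Sting and Moe each had a member summit over coding sequence.

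Promoters shared by genes on opposite strands held 341 member summits (12.3%, 11.1 to 13.5), each upstream of a TSS on both strands within 500 bp. The share was 26.0% in the optimal set and 7.11% without both replicates, with differences of −13.8 points (−16.6 to −11.0) and 5.15 points (3.64 to 6.67). These summits had a median pooled signal of 53.6, against 46.5 for all member summits. Examples were mRpS26 with CG13698 (80.0, replicates 35.2 and 40.9), mRpS21 with the chaperone gene Droj2 (79.8, replicates 44.3 and 38.7) and COX5B with IFT52 (74.5, replicates 45.5 and 50.3). In these 3 pairs the replicates were close to each other, but this did not hold at all such summits. They were further apart at U2af50 with PIG-Q (71.9, replicates 51.3 and 21.9) and at MED8 with CG8929 (62.2, replicates 45.1 and 14.7).

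A small group of member summits flanked optimal summits at a fixed distance. No 2 summits of the pooled list were closer than 199 bp, and every member peak was 400 bp wide. Of the 2783 member summits, 212 (7.62%) lay 199 to 250 bp from an optimal summit, 11 lay from 251 to 500 bp, and 2374 lay more than 1000 bp away. The 212 had a median pooled signal of 47.1, close to the 46.1 of the distant ones. Their worse replicate rank had a better median, 10672 against 14487, while the larger of the distances to a replicate summit was a median of 99 bp, against 65 bp. One or both nearest replicate summits were also the nearest of an optimal summit at 118 member summits (4.24%), and both were at 18.

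The members that both replicates ranked best were nearly all of that kind. Of the 10 with the best worse rank, 9 lay 199 to 209 bp from an optimal summit. The first was at bves, with a pooled signal of 39.4 at rank 9839 but replicate signals of 166.5 and 179.0 at ranks 81 and 74, 203 bp from an optimal summit that shares both replicate summits. Rep, the gene of a Rab escort protein, stood at 27.2 with replicates of 78.9 and 91.6, and Sting, an innate immune sensor gene, at 26.6 with replicates of 65.5 and 55.8. At all 3 the pooled signal was below both replicate signals, and both replicate summits were also the nearest ones of the neighbouring optimal summit. Both replicate summits were shared in this way at Rtnl1 and osp too. At osp the pooled signal was below both replicate signals (66.5 and 113.2), but at Rtnl1 it lay between them (58.7 and 69.0). The others were CG3961 (80.5), brwl (76.2), Rtnl1, a reticulon gene (65.4), dbr (64.0), sbb (63.5) and osp (57.3). At dbr (replicates 64.6 and 67.3) and sbb (replicates 67.8 and 192.0) the pooled signal was also below both, though not both replicate summits were shared. Only AGO1, which encodes an Argonaute of the microRNA pathway, lay far from any optimal summit (8662 bp), with a pooled signal of 71.9 and replicates of 53.2 and 54.6. Its replicate 2 summit was 198 bp away, and was also the nearest one, at 44 bp, of the stronger member summit at AGO1 (77.2).

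The 5 large arms carried similar numbers, from 13.5 to 15.5 member summits per 100 TSS positions. The small chromosome 4, much of which is packaged like heterochromatin, carried 40, or 28.2 per 100 TSS positions, while its 5 optimal promoter summits made 3.52 per 100, the lowest of all arms. Weaker promoter summits of all kinds numbered 59.2 per 100 there, against 29.7 to 32.1 on the large arms. The share of them seen in both replicates (47.6%) was within the range of the large arms (44.2% to 50.9%). Of the 80 protein-coding genes on this chromosome, 32 (40.0%) had a member summit, against 18.9% of all genes. An optimal promoter summit was at 6 of the 80, against 9.90% of all genes. The 80 genes had 1.775 TSSs on average, against 1.41 for all genes, and the part of TSS number in the shares was not tested. Among the strongest were those at gw, which encodes the GW182 silencing protein (80.4, replicates 24.4 and 65.6), and Asator, a kinase gene (69.98, replicates 37.0 and 28.7), genes chosen after their values were seen.

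A member summit within 500 bp of any TSS was found at 2636 of 13945 protein-coding genes, or 18.9% of those counted. Of these, 2162 (15.5% of all genes) had no optimal promoter summit, which is 82.0% of the genes with a member summit. Over all genes, 1381 (9.90%) had an optimal promoter summit, so genes with a member summit had one more often than genes in general. Genes with both kinds had 2.85 TSSs on average, against 1.41 for all genes. An optimal promoter summit was at 6.57% of genes with 1 TSS and 40.2% with 4 or more. The part of TSS number was not tested. Without summits within 1000 bp of an optimal one, 2078 of 2254 genes with a member summit had no optimal promoter summit. That count follows in part from its construction, since a member and an optimal summit within 500 bp of the same TSS are at most 1000 bp apart. Together both kinds of summit marked 3543 genes (25.4%), while 474 genes had both. A single gene was within reach of 2277 member summits, 487 reached 2 genes and 19 reached 3.

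Genes with more TSSs had a member summit more often. The share was 12.9% (12.2 to 13.5) of the 10246 genes with 1 TSS, 28.1% with 2, 44.9% with 3 and 64.8% (60.2 to 69.1) of the 440 genes with 4 or more. Most genes had 1 member summit (2115), 409 had 2, 82 had 3 and the rest had 4 to 6. Moe, the gene of the cytoskeletal linker moesin, had 6 at 8 TSSs, with pooled signals from 29.4 to 73.1. AGO1, CG44774, Lmpt, a LIM domain gene, and PAN3, a deadenylase subunit gene, had 5 each, as did Rab5, a GTPase gene of early endosomes, sd and 1 more gene. At AGO1, CG44774 and PAN3 a pair of these summits lay within 250 bp of each other and shared a nearest replicate summit.

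Among regulators of chromatin and promoters, the insulator and promoter factor genes had the highest share. Of 18 insulator and promoter factor genes, 10 (55.6%, 33.7 to 75.4) had a member summit, against 18.9% of all genes. Of the 10, 7 had no optimal promoter summit, against 82.0% of all genes with a member summit. Among them were grh, the gene of Grainyhead (pooled 78.3, replicates 49.5 and 16.1), and the insulator protein genes BEAF-32 (75.9, replicates 29.8 and 37.7) and CTCF (66.5, replicates 28.5 and 41.5). The replicates were closer at BEAF-32 and CTCF than at grh, where they were about 3-fold apart.

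For Trithorax group genes the count was 9 of 34 (26.5%, 14.6 to 43.1), with Utx, a histone H3 demethylase gene (80.5, replicates 42.9 and 39.5), kis (78.2, replicates 45.1 and 45.6) and fs(1)h, a bromodomain protein gene (72.6, replicates 51.7 and 42.1). For Polycomb group genes it was 6 of 26 (23.1%, 11.0 to 42.1), led by ph-d (80.1, replicates 28.6 and 60.5), jing (76.1, replicates 59.2 and 15.9) and lolal (74.5, replicates 42.2 and 26.7). Both intervals include the share of all genes. The ph-d gene has a close copy beside it, ph-p, and the sources used here do not say how reads common to both were placed. In both groups the optimal set marked more genes, 10 (29.4%) and 8 (30.8%), against 9.90% of all genes.

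The homeotic genes are the best known targets of these regulators. Of the 8 Hox genes, 2 had a member summit (25%, 7.15 to 59.1), against 18.9% of all genes, and 0 had an optimal promoter summit, against 9.90% of all genes. With 8 genes, neither count can be told from the share of all genes. At Scr it was 388 bp upstream, with a pooled signal of 52.5 and replicate signals of 11.7 and 40.6, at ranks 28150 and 3499. At lab it was 328 bp downstream, with 43.3 and replicates of 16.8 and 21.4. The replicates were close at lab and more than 3-fold apart at Scr. Abd-B, Antp and abd-A had a pooled promoter summit seen in 1 replicate, and Dfd, Ubx and pb had none in the pooled list. The corto gene itself had 1 optimal promoter summit (102.5) and no member.

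Hormone response and signalling genes were among the lists with the highest shares. A member summit was found at 14 of 20 ecdysone response genes (70.0%, 48.1 to 85.5), led by usp, the partner of the ecdysone receptor (73.8, replicates 44.0 and 35.3), br, the transcription factor Broad (71.7, replicates 29.8 and 45.3), and Eip63E, a cyclin-dependent kinase gene (68.1, replicates 26.1 and 44.0). These genes had 2.95 TSSs on average, against 1.41 for all genes, and 1 of the 4 with a single TSS had a member summit. The part of TSS number here was not tested either. In signalling it was 21 of 52 (40.4%, 28.2 to 53.9). The leaders were aop, an ETS repressor gene of the receptor tyrosine kinase pathway (74.9, replicates 37.6 and 39.5), spi, a ligand of the EGF receptor (74.4, replicates 42.1 and 28.4), and sd, a transcription factor gene of the Hippo pathway (72.1, replicates 41.6 and 31.0). Of the 27 signalling genes with 1 TSS, 8 (29.6%) had a member summit, against 12.9% of all such genes.

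Developmental and tissue genes were near the share of all genes. The counts were 15 of 76 developmental regulators (19.7%), 6 of 31 neural genes (19.4%) and 6 of 23 muscle genes (26.1%). Of the 15 developmental regulators, 14 had no optimal promoter summit, near the 82.0% of all genes with a member summit. They were led by exd, the Hox cofactor gene Extradenticle (80.3, replicates 18.0 and 58.6), sob (66.2, replicates 44.6 and 28.0) and odd (50.2, replicates 12.3 and 47.6), both of these zinc finger genes of the odd-skipped family. At exd and odd, replicate 2 was more than 3 times replicate 1. The neural leaders were insc, an adaptor gene of asymmetric division (66.4), pros (64.1) and dpn, a neural stem cell repressor gene (54.5). The muscle leaders were Tm1, a tropomyosin gene (65.4), mbc, a myoblast fusion gene (59.5), and Msp300, a nesprin gene (52.7). Muscle genes had 2.96 TSSs on average, against 1.41 for all genes, and 1 of the 7 with a single TSS had a member summit. The part of TSS number in their share was not tested.

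Ribosomal protein genes of both compartments carried many member summits. In the cytoplasm it was 33 of 86 (38.4%, 28.8 to 48.9), led by RpS27A (80.0, replicates 40.9 and 42.2), RpL41 (79.8, replicates 31.9 and 16.2) and RpS6 (79.7, replicates 45.4 and 36.8). In mitochondria it was 21 of 75 (28.0%, 19.1 to 39.0), led by mRpS26, mRpS21 and mRpS31, the last at 77.9 with replicates of 38.9 and 36.5. The optimal set marked 19 (22.1%) and 10 (13.3%) of these genes, against 9.90% of all genes. Among genes with 1 TSS, 16 of 42 cytoplasmic (38.1%) and 21 of 69 mitochondrial ones (30.4%) had a member summit, against 12.9% of all genes with 1 TSS. The summit of RpL41 lies in reach of NaCP60E too, and is 204 bp from an optimal summit.

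For other genes of growth and metabolism, the intervals included the share of all genes. Of translation factor genes 13 of 54 (24.1%) had a member summit, among them eIF4A, an RNA helicase gene (74.3, replicates 33.4 and 40.0), and eEF1alpha1, an elongation factor gene (72.1, replicates 54.7 and 20.1). For oxidative phosphorylation the count was 17 of 75 (22.7%), with ND-B22 (78.8, replicates 39.0 and 40.8), ND-13B (77.1, replicates 21.2 and 53.8) and COX5B. Glycolysis had 5 of 15 (33.3%, 15.2 to 58.3), with PyK (56.97), Pgk (49.02) and Ald1 (42.4), and tRNA synthetases 5 of 33 (15.2%), led by AsnRS (77.6, replicates 46.7 and 31.5). The cell cycle list had 10 of 43 (23.3%), led by Cdk12 (64.5), E2f2 (56.2) and grp, a checkpoint kinase gene (55.8).

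Gene expression machinery gave 8 of 33 spliceosome genes (24.2%), led by U2af50 (71.9), 5 of 27 Mediator genes (18.5%), led by skd (63.6), and 4 of 36 genes of RNA polymerase II and general factors (11.1%), led by Taf13 (62.2). The proteasome had 6 of 48 (12.5%), led by Rpn13 (61.3), and actin and tubulin 2 of 16 (12.5%), betaTub56D (58.9) and Act5C (48.2). Heat shock had 7 of 26 (26.9%), but Hsp22, CG4456 and Hsp67Bc share a single summit (65.9, replicates 31.3 and 28.7). The intervals of all these lists include 18.9%.

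Genes of late or restricted expression and the histone cluster were nearly empty. Cuticle protein genes had 4 of 117 (3.42%, 1.34 to 8.46), with Cpr12A (58.4, replicates 24.2 and 37.8) the strongest, and odorant and gustatory receptor genes 3 of 120 (2.50%, 0.854 to 7.09), with Or83c (35.7), Gr64a (26.0) and Gr58c (24.9). Neither list had an optimal promoter summit. The ranks in replicates 1 and 2 were 16917 and 22580 at Or83c, 29998 and 12300 at Gr64a, and 24279 and 28027 at Gr58c. Each replicate list has 30000 entries and holds background as well as peaks. None of the 111 histone genes had a member summit, which allows a share of up to 2.70%. Histone genes are near-identical repeated copies, and the sources used here do not say how their reads were placed.

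**Figure D4:**
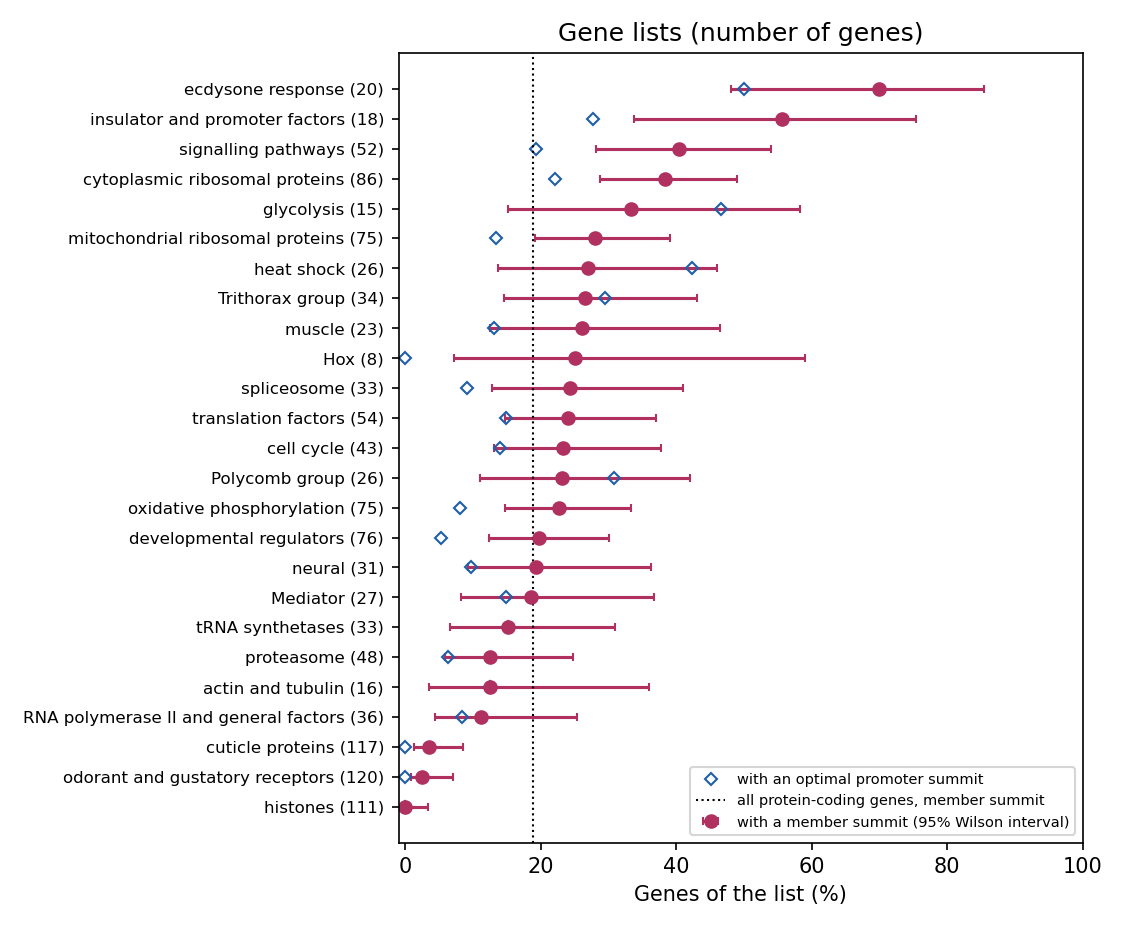
Share of genes in each of 25 lists with a member summit (filled circles, bars are 95% Wilson intervals) and with an optimal promoter summit (open diamonds), in percent; the dotted line is the 18.9% of all protein-coding genes with a member summit. Ecdysone response, insulator and promoter factors, signalling and both ribosomal protein lists have intervals wholly to its right; cuticle proteins, receptors and histones lie to its left.

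In sequence, the member windows were AT-rich like other promoters. Their median GC content was 37.3%, against 35.3% at optimal promoter summits, 38.3% at weaker ones without both replicates, 38.8% in all 19253 windows of the same length that end at a TSS, and 42.3% in windows 1000 bp to either side. Word frequencies depend on this composition.

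The GAGA repeat, of which the kis and CG3961 windows give examples, was in 27.5% of member windows. It was in 32.9% at optimal promoter summits, 23.3% without both replicates, 25.3% of all TSS windows and 22.4% of the windows 1000 bp away. The member share exceeded that without both replicates by 4.18 points (1.96 to 6.41) and that of all TSS windows by 2.13 points (0.386 to 3.92). It was 30.6% (27.8 to 33.4) in ranks 2645 to 6000, 27.4% in ranks 6001 to 12000 and 23.03% (20.1 to 26.3) in ranks 12001 to 30000. The CRE half-site, seen at wgn, was in 6.11% of member windows, against 4.50% of all TSS windows, a difference of 1.61 points (0.721 to 2.60). It exceeded the share without both replicates by 1.27 points (0.115 to 2.46) and that 1000 bp away by 1.78 points (0.773 to 2.86). The difference from optimal promoter summits, 1.18 points (−0.454 to 2.64), had an interval that includes 0. Summits without both replicates had a median rank of 18212, against 7452 for member summits. For both words, the part of rank in the difference between these sets was not tested. Nor was the part of placement around the TSS in the difference from all TSS windows.

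The core promoter words were not more frequent in member windows than in all TSS windows. Those windows end at a TSS, while member summits lie on either side of one, and the part of this placement was not tested. The TATA word was in 35.6% of upstream and 28.0% of downstream member windows. The DRE was in 5.26% (4.34 to 6.35) of upstream and 4.35% (3.18 to 5.91) of downstream member windows. The upstream interval includes the 6.21% of all TSS windows, and the downstream interval lies below it. The M1BP core was in 2.05% of upstream and 1.83% of downstream member windows. The upper limits of these shares, 2.79% and 2.95%, were below the 3.33% of all TSS windows. The TATA word was in 33.3% of member windows and 33.6% of all TSS windows, a difference of −0.285 points (−2.14 to 1.61). The DRE was in 4.96% against 6.21%, and the M1BP core in 1.98% against 3.33%, differences of −1.25 points (−2.07 to −0.316) and −1.36 points (−1.88 to −0.722). All 3 were more frequent than 1000 bp away, where the shares were 22.3%, 0.808% and 0.593%. The Pho core was in 27.6%, against 29.9% of all TSS windows and 32.7% of windows 1000 bp away. The E-box (11.2%, against 12.01%), AP-1 site (1.65%, against 1.78%) and Zelda site (0.826%, against 1.19%) differed from all TSS windows by intervals that include 0.

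Word content differed with the place of the summit. The 341 summits between TSSs of opposite strands held the DRE in 12.02% of windows (8.99 to 15.9), the M1BP core in 6.74% (4.54 to 9.92) and the TATA word in 46.9% (41.7 to 52.2), but the GAGA repeat in 15.2% (11.8 to 19.4). Their median GC content was 32.3%. The GT repeat was in 4.89% of all member windows, against 3.80% of all TSS windows (difference 1.09 points, 0.298 to 1.99). Its share was 5.12% without both replicates, 4.76% at optimal promoter summits and 4.37% in windows 1000 bp away. The intervals of all these differences from the member share include 0. Among member windows it was in 2.94% (2.27 to 3.80) of those upstream of the TSS and in 9.15% (7.42 to 11.2) of those downstream. It was in 1 of the 341 between TSSs.

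**Figure D5:**
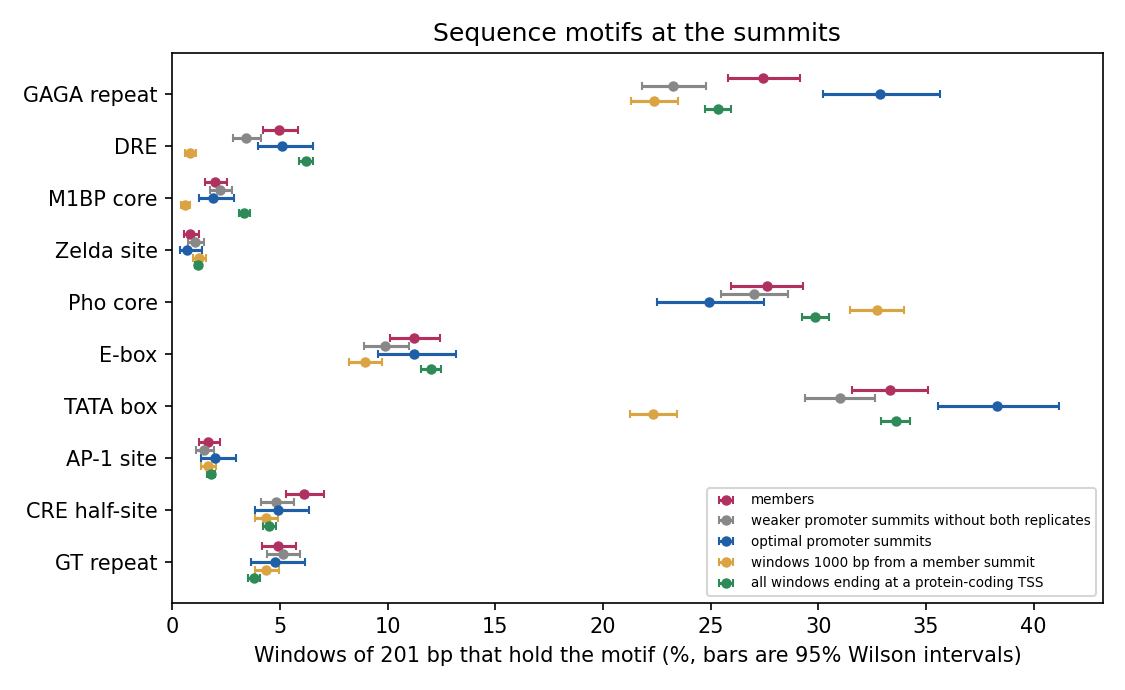
Share of windows of 100 bp on each side of the summit holding each of 10 words on either strand (horizontal, percent, bars are 95% Wilson intervals), for the member summits, the other sets of promoter summits, windows 1000 bp from a member summit and all windows ending at a TSS. The GAGA repeat is at 27.5% in members, between 23.3% without both replicates and 32.9% in the optimal set, and the DRE, M1BP core and TATA words are lowest 1000 bp away.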

How the data were processed

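Corto-GFP ChIP-seq peak lists of 2 biological replicates, and a pooled list, were used on dm6. Per the deposited text notes, each list of 30000 entries of peaks and background came from alignments and a control, and the authors derived the optimal set from them with the irreproducible discovery rate. The values are the deposited peak signal; the sources used here do not give its scale, the aligner, the caller or the threshold. The dm3 lists were not used. Replicate numbers are those of the labels.

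Summits were matched to 19607 TSSs of 13945 protein-coding genes (Ensembl release 115, BDGP6 assembly, 6 arms) with Python 3.11.15, NumPy 2.4.6, pandas 2.3.3 and SciPy 1.17.1; figures used matplotlib 3.10.9. Member peaks ended inside the arms. Motifs were searched 100 bp on either side of the summit. Shares have 95% Wilson intervals and their differences Newcombe intervals, which cover counting error only; for a count of 0 the limit is 3 counts of the total. The functions were checked on simulated positions and sequences.

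The member summits, the 25 gene lists and the motifs were chosen with earlier results of these data known, and 2 entries were taken out of the lists before their values were computed. Named genes are those at the 8 strongest, 5 weakest and 10 best ranked member summits, the Hox genes and corto, up to 3 leaders of each list, and the genes with the most member summits (ties included). Sequences were taken from these, leaving out chromosome arms not printed here and windows with over 30 bp of UTR. Alternatives changed the promoter window, the replicate distance or overlap, the list length, the replicates required, nearby and merged summits, gene assignment and the motif window.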

Additional observations from a re-analysis of the deposited data

How the results depend on the processing

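Depth is unknown, 2 replicates of 1 group allow no test, and the pooled list is not independent of either replicate. No paired analysis was possible because there is only 1 group. Of the values under other settings, 47 stayed within the interval of the share or 1.5 times the count, and 44 did not; the cause was not tested, though a smaller or larger window or distance selects fewer or more by its construction. Promoter windows of 250 and 1000 bp gave 49.6% and 44.3% of weaker promoter summits seen in both replicates, and 8.09% and 14.1% of member summits between TSSs of opposite strands; at 1000 bp 61.9% were upstream. Replicate distances of 100 and 50 bp gave 32.1% and 19.4% seen in both, and 50 bp left 1146 member summits at 1237 genes, 1008 of them without an optimal promoter summit. Overlap of peak intervals gave 62.4% seen in both and 66.4% upstream. The first 15000 entries of each replicate list gave 26.6% seen in both, 1572 member summits, 1627 genes, 1281 of them without an optimal summit, 70.8% upstream and 15.1% between TSSs. Without summits within 1000 bp of an optimal one, 45.7% were seen in both. With 1 replicate left out, and a summit in the other enough, 70.5% to 70.5% of weaker promoter summits qualified, with 4164 to 4165 member summits, 65.5% to 66.1% upstream, 9.75% to 11.5% between TSSs, 3559 to 3742 genes and 3001 to 3155 genes without an optimal summit. With 50 and 150 bp on each side, word shares were: GAGA repeat 15% and 38.3%, DRE 2.95% and 6.9%, M1BP core 0.647% and 3.23%, Zelda site 0.503% and 1.58%, Pho core 15.1% and 36.9%, E-box 5.43% and 16.5%, TATA box 19.9% and 45%, AP-1 site 0.898% and 2.48%, CRE half-site 2.37% and 8.23%, GT repeat 2.23% and 8.34%. The other promoter sets were not recomputed under these settings.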
